A study of Mus musculus with 19 samples.

Results

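Genes that are known to differ between stocks of the C57BL/6 mouse can be read in an expression table as a check of colony background. Nnt, Wdfy1, Entpd4, Ide, Fgfbp3, Nlrp12, Cyfip2 and Crb1, each described as carrying a sequence, copy number or expression difference between C57BL/6 substrains, were taken by gene symbol for that check. The 8 symbols matched 9 of the 34432 rows of the expression table, since Nnt has 2 rows. Tests covered the 13976 rows whose mean over the 19 libraries reached 10 normalized counts, and 8 of the 9 rows were among them; Crb1 was not. The libraries were made from whole bone marrow flushed from tibiae and femurs of 8-week-old C57/BL6 mice. The 5 genotypes were wild type (WT, 3 libraries), mice carrying only the Vav-iCre transgene (VAV, 4 libraries), Cdk8 flox/flox mice with Vav-iCre (CDK8KO, 4 libraries), Cdk19 null mice for which no transgene is given (CDK19KO, 4 libraries) and Cdk8 flox/flox mice with Vav-iCre that were also Cdk19 null (DKO, 4 libraries). Vav-iCre expresses Cre recombinase in blood-forming cells, so the design deletes Cdk8 in those cells and Cdk19 in the whole animal. Nothing in the labels says that each library came from a separate animal or which colony each genotype came from, so the spread behind each p-value may be partly technical.

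C57BL/6J and C57BL/6N colonies were separated long ago and have since fixed different variants. Nnt encodes nicotinamide nucleotide transhydrogenase, an inner mitochondrial membrane enzyme that makes NADPH, and C57BL/6J mice carry a deletion of several of its exons. Nlrp12, a sensor of the NLR family expressed in neutrophils, carries a missense change in C57BL/6J; Cyfip2, a subunit of the actin-regulating WAVE complex, carries a missense change in C57BL/6N; and Crb1, a polarity protein of the retina, carries the rd8 frameshift in C57BL/6N. Ide, the insulin-degrading enzyme, and Fgfbp3, a fibroblast growth factor binding protein, lie in a segment described as copy-number variable in C57BL/6J, while Wdfy1, an endosomal FYVE-domain protein, and Entpd4, an intracellular nucleoside diphosphatase, have been reported to differ in expression between substrains. The mouse reference genome is that of C57BL/6J, so gene totals counted on it hold no reads from exons that C57BL/6J lacks, and no total in this table names an allele.

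Library totals ran from 14881701 reads in a DKO library to 33010241 in a VAV library, and all values below are normalized counts unless another unit is named. Cdk19 lay between 2710 and 4304 in WT, VAV and CDK8KO and between 1025 and 1202 in CDK19KO and DKO. Cdk8 ranged from 691.7 to 1298 in CDK8KO, overlapping VAV (789.03 to 1315), and from 742 to 881 in DKO. A total over the whole gene is no measure of a floxed exon, and it does not check the CDK8KO label. A few libraries stood apart in markers of other cells: the summed erythroid markers (7 genes) reached 531102 in VAV replicate 3 and 578453 in CDK8KO replicate 1, against 72525 to 159154 in WT, and the summed skeletal muscle markers (5 genes), at 49.8 to 196 in WT, reached 13796 in replicate 4 of CDK19KO and 3560 in replicate 4 of DKO. Summed late neutrophil markers (12 genes) were present in every library, from 633529 to 1435946.

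Nnt was the only one of the 8 genes whose level differed among the genotypes past the threshold in limma (adjusted p below 0.05), and only when its 2 rows were added. The rows are 2 gene models at one place, the first (ENSMUSG00000025453) at chr13:119335448-119408997 and the second (ENSMUSG00000116207) at chr13:119335528-119408952, both on the minus strand of GRCm38. The longest transcript of the second model, 3339 bases in 17 exons, is contained whole in a transcript of 3464 bases of the first, which adds 45 bases at the 5′ end and 80 at the 3′ end, and both share a coding sequence of 2505 bases. None of the 3309 stretches of 31 bases of the shorter transcript is its own, so no read can be assigned to the second model alone, whereas the transcripts of the first model hold 125 to 1538 such stretches that the second lacks. Reads from the shared stretches cannot be told apart. The deposited table gave the first row 687 to 1955 normalized counts in VAV and 792 to 1389 in CDK8KO, above its 466 to 632 in WT; CDK19KO libraries ran from 557 to 803 there and DKO libraries from 614 to 845. The second row held 0 to 1795 in VAV and 866 to 1231 in CDK8KO, and 429 to 641 in WT; CDK19KO libraries ran from 326 to 540 and DKO libraries from 259 to 1003. The share of Nnt reads given to the second row ran from 28.9% in CDK19KO replicate 3 to 71.1% in VAV replicate 1 in 18 libraries. VAV replicate 4 had 0 of its 2330 Nnt reads there. That 0 is an allocation of shared reads, so its counting interval (exact Clopper-Pearson 95%, up to 0.158%) does not bound the share. The split between the rows therefore moved between libraries of 1 genotype, and the sum of the rows, chosen after the data were seen, is the quantity used below for Nnt.

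**Figure D1:**
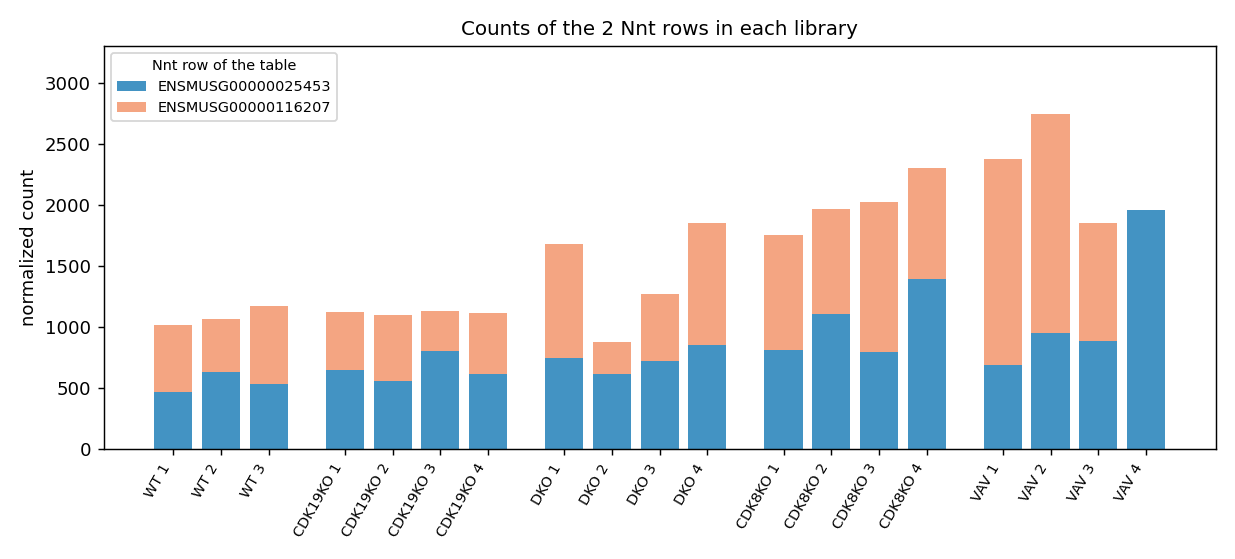
Normalized counts of Nnt in each of the 19 libraries (stacked bars, linear axis from 0), divided into the 2 deposited rows. The second row is at 0 in VAV replicate 4, and the height of the whole bar lies between 1015 and 1166 in WT and between 1847 and 2740 in VAV.

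Summed Nnt was 1015, 1061 and 1166 normalized counts in the WT libraries (1081 ± 77.4, mean ± SD, n = 3). In CDK19KO it was 1123, 1098, 1129 and 1111 (1115 ± 14.0, SD, n = 4). Both groups without the transgene were thus low and close together, and their libraries overlapped. In DKO it was 1675, 873, 1268 and 1848 (1416 ± 436, SD, n = 4), so that replicate 2 held the lowest value of all 19 libraries and the other 3 DKO libraries lay above every WT and CDK19KO library. In CDK8KO it was 1750, 1967, 2023 and 2304 (2011 ± 228, SD, n = 4). In VAV it was 2373, 2740, 1847 and 1955 (2229 ± 410, SD, n = 4). Every VAV and CDK8KO library lay above every WT and CDK19KO library, and the share of all genes split in this way was not counted. In the order WT, CDK19KO, DKO, CDK8KO, VAV, each group overlapped the next. The coefficient of variation over all libraries was 34.3% for summed Nnt, against a median of 21.4% over the tested genes, and 1.26% within CDK19KO against 30.8% within DKO.

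Summed Nnt passed the test for any difference among the 5 genotypes (limma moderated F = 13.4, Benjamini-Hochberg adjusted p = 0.00514), which 2.13% of genes passed, and it passed that test in all 29 alternative settings (highest adjusted p = 0.0180). Between VAV and WT the difference was 1.03 ± 0.19 on the log2(value + 1) scale (SE; 95% interval 0.62 to 1.43), a 2.04-fold higher level in VAV, with an adjusted p of 0.0402 in limma, where 0.122% of genes passed with the rows summed. The libraries of VAV and WT did not overlap, as for 12.4% of genes, and the exact two-sided permutation p was 0.0286, the smallest these group sizes allow (0.421 after Benjamini-Hochberg adjustment over 59 such tests). The comparison of VAV with WT held in 14 of 30 alternative settings and ended in 16, while the difference itself stayed between 0.92 and 1.11. Leaving out WT replicate 1, 2 or 3 gave adjusted p = 0.173, 0.141 and 0.178 in limma, and leaving out VAV replicate 1, 2 or 4 gave 0.134, 0.161 and 0.0645. Removing CDK8KO replicate 3, any one CDK19KO library or DKO replicate 3, none of which is in the comparison, gave adjusted p between 0.0550 and 0.0632 in limma; all 19 libraries share 1 estimate of the spread.

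The other differences in summed Nnt did not pass. The level in DKO was lower than in VAV by a log2 difference of -0.69 ± 0.18 (SE; 95% interval -1.07 to -0.32; limma adjusted p = 0.0598), with overlapping libraries, and 6 of 30 alternative settings put it past the threshold. Without the muscle-rich libraries it was -0.84 with an adjusted p of 0.0422, and without the erythroid-rich libraries -0.78 with an adjusted p of 0.0359 in limma. In these settings limma called 100 and 396 genes between DKO and VAV, against 213 in the main fit. Against CDK8KO the DKO difference was -0.56 ± 0.18 (SE, limma adjusted p = 0.125), and against CDK19KO it was 0.29 ± 0.18 (SE, limma adjusted p = 0.450). Between CDK8KO and VAV, both with the transgene, the difference was -0.14 with a 95% interval from -0.51 to 0.24, and between CDK19KO and WT, both without it, 0.05 with an interval from -0.36 to 0.45. Comparisons that share VAV, WT or DKO libraries share their error. In whole marrow, fewer cells of a type and less RNA per cell cannot be told apart.

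Marker genes of several marrow cell types moved in the same comparison of VAV with WT, none of them past the threshold. Of 12 late neutrophil markers 11 were higher in VAV (median log2 difference 0.40), as were 5 of 5 early granulocyte markers and 5 of 5 monocyte markers (median 0.54). Of 8 B cell markers 1 was higher (median -0.40), and of 7 erythroid markers 0 were higher (median -0.74). The summed late neutrophil level was 749764 to 945110 in WT and 848331 to 1434447 in VAV, and the summed erythroid level 72525 to 159154 in WT and 14774 to 531102 in VAV. The part of these markers in the Nnt difference was not tested. Without VAV replicate 3 and CDK8KO replicate 1, the erythroid-rich libraries, the Nnt difference between VAV and WT was 1.11 (limma adjusted p = 0.00818). In that setting limma called 1062 genes between VAV and WT, against 13 in the main fit, with the Nnt rows kept apart.

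**Figure D2:**
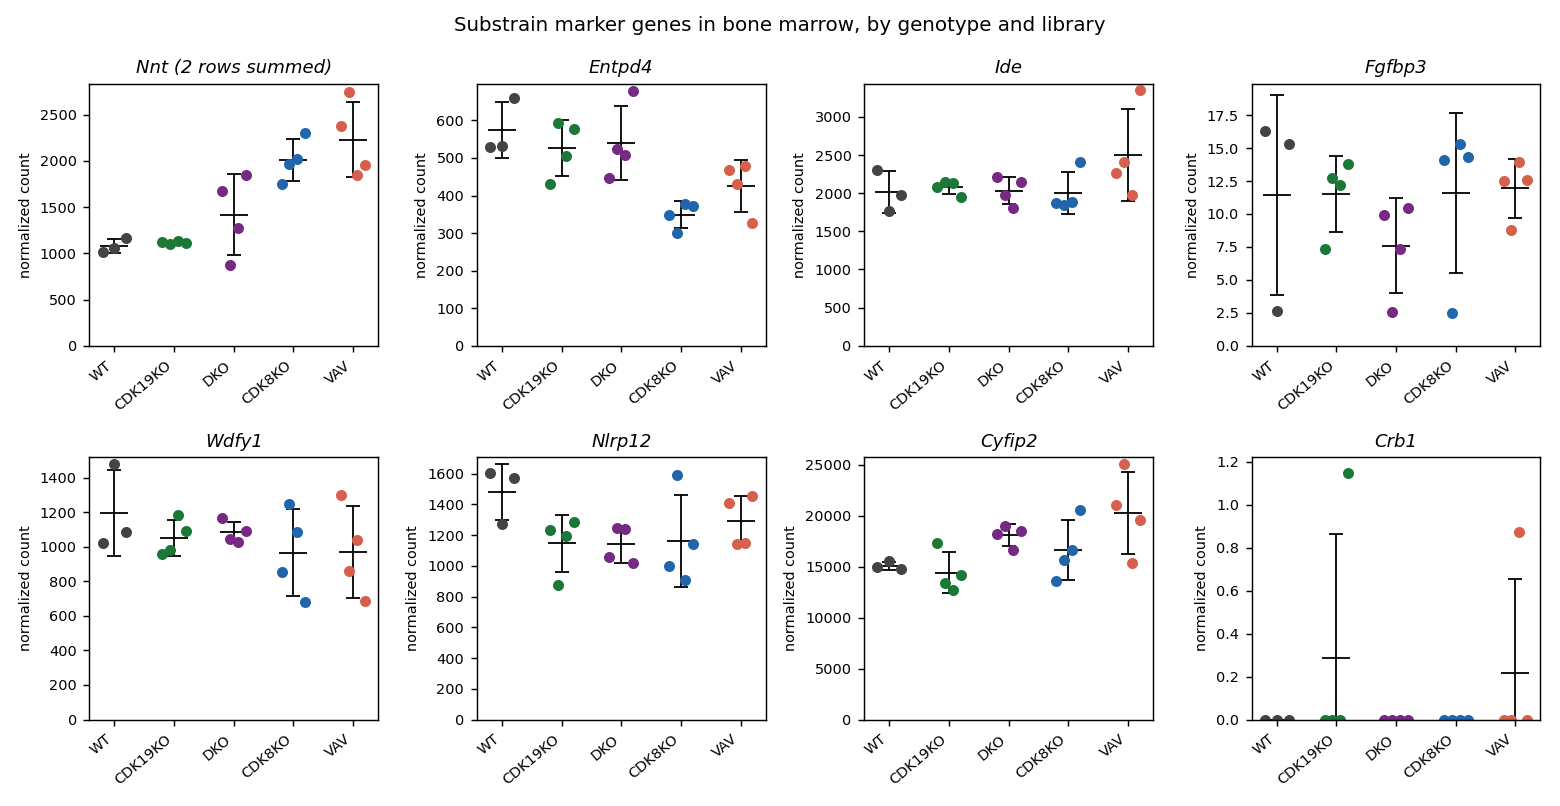
Normalized counts of the 8 genes in each library (points, linear axes) by genotype, with the mean and SD of each group (bars); Nnt is the sum of its 2 rows. The Nnt points of VAV and CDK8KO lie above all points of WT and CDK19KO, and the Entpd4 points of CDK8KO lie below all points of WT, CDK19KO and DKO.

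Of the 8 member rows as deposited, with Nnt as 2 rows, 0 passed the F test in limma, which 2.13% of genes passed. In that test 3 had an unadjusted p below 0.05 (17.4% of genes). The edgeR test called 0 of the rows. The likelihood ratio test of DESeq2 called 2 (the first Nnt row and Entpd4), beside 1178 genes in all, where limma called 297. The first Nnt row had an adjusted p of 0.141 in the F test and the second 0.848. In the pairwise comparisons 0 of the 8 rows passed in limma against 0% of genes for CDK8KO against VAV, 0.0215% for CDK19KO against WT, 1.52% for DKO against VAV, 0.093% for VAV against WT, 1.7% for DKO against CDK8KO and 2% for DKO against CDK19KO. At an unadjusted p below 0.05, VAV against WT held 3 of the 8 rows, beside 14.8% of genes. Each of the other 5 comparisons held 1 row, beside 8.31% of genes for CDK8KO against VAV, 3.07% for CDK19KO against WT, 15.7% for DKO against VAV, 16.1% for DKO against CDK8KO and 15.6% for DKO against CDK19KO. In all 6 comparisons edgeR called 0 of the rows. DESeq2 called 1 row in VAV against WT, the first Nnt row, beside 321 genes in all (13 in limma). It called 1 row in DKO against CDK8KO, Entpd4, beside 712 genes in all (238 in limma). Libraries did not overlap for 2 of the 8 rows between VAV and WT (the first Nnt row and Entpd4; 12.4% of genes), for 1 between DKO and CDK8KO (Entpd4; 7.43% of genes) and for 0 in the other 4 comparisons (1.76% of genes for CDK8KO against VAV, 7.61% for CDK19KO against WT, 8.49% for DKO against VAV and 15% for DKO against CDK19KO). The median log2 difference of the 8 rows between VAV and WT was 0.0436, beside -0.0066 over all tested genes.

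**Figure D3:**
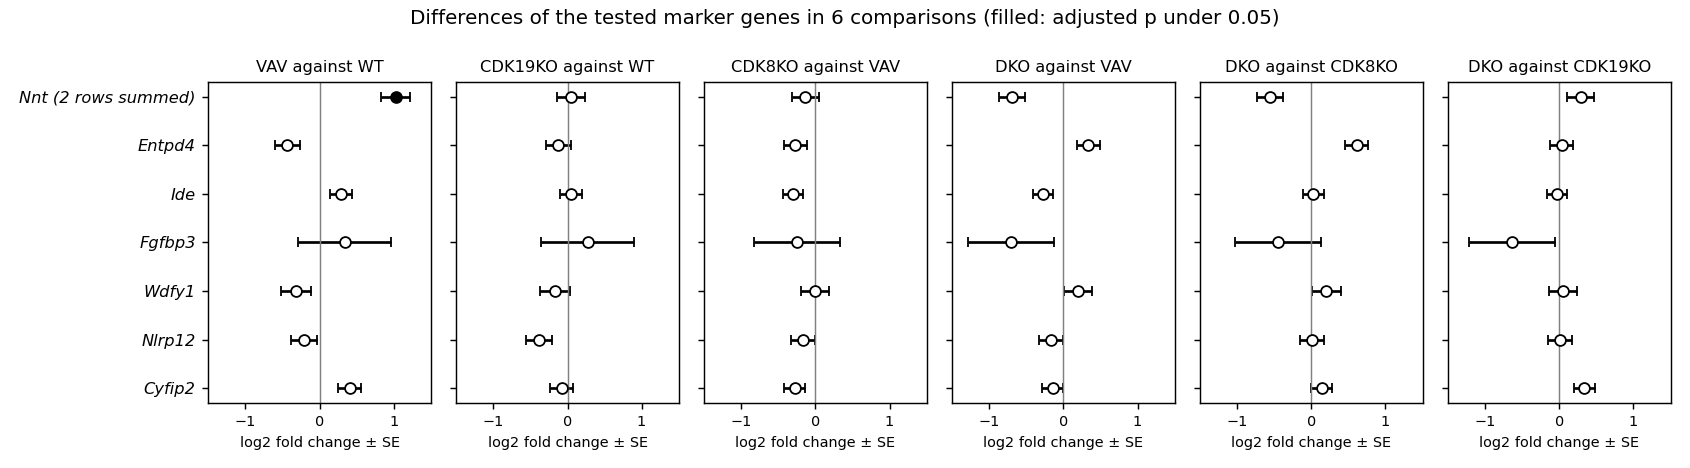
Log2 differences (points, with SE as bars) of the 7 tested genes in the 6 pairwise comparisons, Nnt as the sum of its rows. The filled point marks an adjusted p below 0.05 in limma, reached by Nnt in VAV against WT (1.03) alone.

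The nearest tested genes on either side of each gene, up to 3 a side and 44 genes in all, were read as neighbours. Of the 44, 1 passed the F test (2.13% of genes), 1 passed between VAV and WT (0.093%) and 1 between DKO and CDK19KO (2%). The last was Gm3375. Gm3375 lies 36.9 kb from Nlrp12 and shares 70.0% of its 31-base stretches with Psmb5, so its reads are uncertain; its limma adjusted p was 0.0401, and the call was lost without any one WT, CDK19KO or DKO library (0.0518 to 0.112), without both muscle-rich libraries (0.125), in edgeR (0.0773) and DESeq2 (0.0576), with no filter (0.0507) and with a pseudocount of 0.5 (0.0502). In the other 4 comparisons the smallest adjusted p in limma was 0.0746 (DKO against VAV), 0.111 (DKO against CDK8KO), 0.586 (CDK8KO against VAV) and 1 (CDK19KO against WT).

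The neighbour that passed the F test and the comparison of VAV with WT was Tmem267, which encodes a membrane protein and lies 79.0 kb from Nnt (chr13:119488039-119611059, GRCm38). It had 145, 85.1 and 145 normalized counts in WT, 102 to 131 in CDK19KO, 73.4 to 97.8 in DKO, 61.2 to 75.5 in CDK8KO, and 41.0, 46.7, 61.9 and 40.3 in VAV. The order of its group means was thus the reverse of that of summed Nnt. Tmem267 was lower in VAV than in WT by a log2 difference of -1.36 ± 0.22 (SE, limma adjusted p = 0.0181 and F test adjusted p = 0.00481). The libraries of VAV and WT did not overlap, as for 12.4% of genes. The call in VAV against WT was lost without WT replicate 1 or 3 (limma adjusted p = 0.132 and 0.196) and without VAV replicate 1, 2 or 4 (0.0618, 0.0672 and 0.0514), and with the 2 groups alone (0.253). The 2 genes between Nnt and Tmem267 did not pass. Paip1, whose product binds the poly(A)-binding protein and promotes translation, lies 19.6 kb from Nnt and had 1016 to 1588 normalized counts over all libraries (limma F test adjusted p = 0.844). The gene 4833420G17Rik, 53.8 kb from Nnt, had 960 to 1554 (limma F test adjusted p = 0.401).

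**Figure D4:**
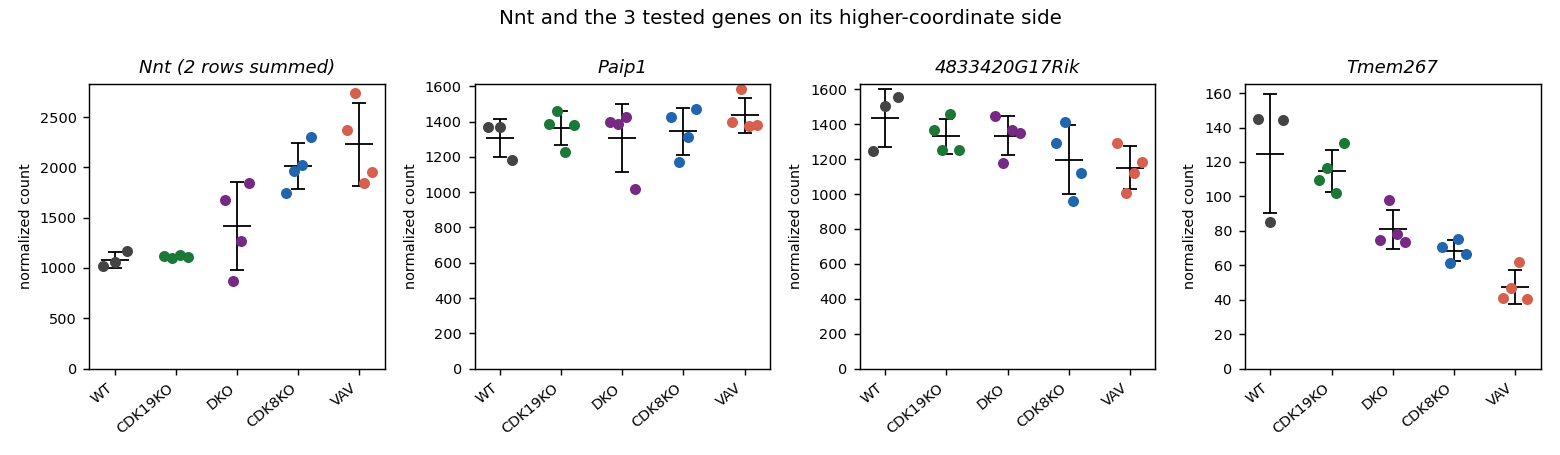
Normalized counts of summed Nnt and of Paip1, 4833420G17Rik and Tmem267, its nearest tested genes at higher coordinates, in each library (points, linear axes) with group means and SD. Tmem267 runs from 40.3 to 61.9 in VAV and from 85.1 to 145 in WT, while Paip1 groups overlap.

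Entpd4 (chr14:69337174-69367270, plus strand, GRCm38), a nucleoside diphosphatase of Golgi and lysosomal membranes, had 530.0, 530.5 and 660 normalized counts in WT (573 ± 74.8, SD, n = 3). In CDK19KO it had 430, 592, 506 and 577 (526 ± 74.3) and in DKO 447, 523, 507 and 679 (539 ± 98.7, SD, n = 4 each). In VAV it had 469, 431, 478 and 326 (426 ± 69.4), and in CDK8KO 348, 301, 378 and 371 (349 ± 34.9, SD, n = 4 each). CDK8KO was thus lowest and VAV next, and each VAV and CDK8KO library lay below each WT library. For what share of all genes this split holds was not counted. Between DKO and CDK8KO, which share the transgene and the floxed Cdk8, the log2 difference was 0.61 ± 0.16 (SE; 95% interval 0.29 to 0.94), a 1.53-fold higher level in DKO, with a limma adjusted p of 0.0529 and an exact two-sided permutation p of 0.0286 (0.421 after adjustment). Adjusted p for any difference among the genotypes was 0.0613 in limma. Both missed the threshold here. DESeq2 put both past it (adjusted p = 0.00850 and 0.00300), where it called 712 and 1178 genes against 238 and 297 in limma. Calls came in 6 of 30 and 3 of 29 alternative settings. Between VAV and WT the log2 difference was -0.44 ± 0.17 (SE, limma adjusted p = 0.243). All 5 transcripts of the near-identical gene Entpd4b, not analysed here, match transcripts of Entpd4 base for base (the longest 3589 bases), so reads of the pair cannot be told apart. Gm16867, which overlaps Entpd4 on chromosome 14 and shares 88.0% of its 31-base stretches with Gm27177, ran from 1325 to 1658 in WT and from 0 to 2854 in CDK8KO (limma F test adjusted p = 0.159).

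Ide and Fgfbp3 lie in the segment of chromosome 19 described as copy-number variable, with the tested genes Marchf5, Cpeb3 and Btaf1 between them (limma F test adjusted p = 0.598, 0.519 and 0.248). Ide (chr19:37268743-37337852, minus strand) had 2302, 1766 and 1982 normalized counts in WT and 2267, 2415, 1971 and 3356 in VAV. The CDK8KO libraries had 1866, 1842, 1891 and 2415, while DKO ran from 1811 to 2208 and CDK19KO from 1951 to 2144. VAV replicate 4 held the highest value, and the ranges of all 5 genotypes overlapped. The group means were 2017 ± 270 (SD, n = 3) in WT, 2502 ± 598 in VAV, 2077 ± 89.0 in CDK19KO, 2034 ± 180 in DKO and 2004 ± 275 in CDK8KO (SD, n = 4 each; limma F test adjusted p = 0.488). Between VAV and WT the 95% interval of the log2 difference ran from -0.02 to 0.61, and between CDK19KO and WT from -0.26 to 0.36. Fgfbp3 (chr19:36917550-36919615, minus strand) was near the limit of detection, with 2.50 to 16.3 normalized counts (mean 10.8). Its lowest values were 2.66 in WT replicate 2, 2.50 in CDK8KO replicate 2 and 2.60 in DKO replicate 2, which rest on 2, 2 and 3 reads. At this depth no difference between genotypes was detectable in Fgfbp3 (limma F test adjusted p = 0.860), and its 95% interval between VAV and WT ran from -0.98 to 1.65 on the log2 scale.

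Because 1 segment holds both genes, they were also read against each other. Over the 19 libraries the log2 values had Pearson's r = 0.366 (permutation p = 0.125, Benjamini-Hochberg adjusted p = 0.250 over both coefficients) and Spearman's rho = 0.272 (permutation p = 0.261). Within genotypes r was 0.326 (permutation p = 0.173) and rho was 0.396 (permutation p = 0.0935). Without VAV replicate 4 and WT replicate 2, the libraries farthest from the median of Ide, r was 0.307 (permutation p = 0.237). With 1 library left out r ran from 0.267 to 0.437, the highest without VAV replicate 4 (permutation p = 0.0703). A relation between Ide and Fgfbp3 was thus not detectable over these libraries.

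Wdfy1 (chr1:79702262-79776143, minus strand), which encodes a FYVE and WD repeat protein of early endosomes, had 679 to 1477 normalized counts. Its means were 1194 ± 247 in WT (SD, n = 3), 1083 ± 61.5 in DKO, 1053 ± 104 in CDK19KO, 969.5 ± 264 in VAV and finally 966 ± 251 in CDK8KO (SD, n = 4 each; limma F test adjusted p = 0.680). The widest spreads were within VAV (683 to 1302) and CDK8KO (679 to 1246), and no pair of genotypes was free of overlap in the 6 comparisons. The log2 difference of VAV from WT had a 95% interval of -0.75 to 0.11.

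Nlrp12 (chr7:3218784-3249740, minus strand) had 874 to 1603 normalized counts. WT held the highest mean, 1483 ± 182 (SD, n = 3), followed by VAV with 1289 ± 166, CDK8KO with 1161 ± 301, CDK19KO with 1146 ± 185 and DKO with 1141 ± 120 (SD, n = 4 each). The F test was not passed (limma adjusted p = 0.452). The log2 difference between CDK19KO and WT was -0.38 ± 0.17 (SE; 95% interval -0.75 to -0.01; limma adjusted p = 1), with libraries from 874 to 1282 in CDK19KO and from 1274 to 1603 in WT that overlapped at 1 library each.

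Cyfip2 (chr11:46193850-46312859, minus strand) had 12746 to 25081 normalized counts. The WT libraries were tightly grouped, from 14738 to 15531 (15068 ± 413, SD, n = 3), whereas VAV ran from 15352 to 25081 (20271 ± 4016, SD, n = 4). The other means were 18086 ± 1048 in DKO, 16608 ± 2922 in CDK8KO and 14392 ± 2002 in CDK19KO (SD, n = 4 each). Neither the F test (limma adjusted p = 0.225) nor VAV against WT (log2 difference 0.41 ± 0.15, SE, limma adjusted p = 0.237) was passed. Without the erythroid-rich VAV replicate 3 and CDK8KO replicate 1, adjusted p fell below the threshold in both, to 0.0219 in the F test and to 0.0233 for a difference of 0.53 between VAV and WT. Those are the libraries with the highest erythroid marker sums, and the part of erythroid RNA in the difference was not tested. Without them limma called 1472 genes in the F test and 1062 between VAV and WT, against 297 and 13 in the main fit.

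Crb1 (chr1:139197056-139377100, minus strand) was represented by 1 read in VAV replicate 3 (0.871 normalized counts) and 1 read in CDK19KO replicate 4 (1.15), and by 0 reads in the other 17 libraries, which allows up to 3 reads in each. Nothing about its alleles can be read at this level.

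Genes whose log2 values ran most like those of each gene over the 19 libraries were listed by Pearson's r, as a description without a test; the libraries share genotype, depth and cell makeup. For summed Nnt they were Gm46223 (r = 0.85), the immunoglobulin heavy chain segment Ighv1-81 (r = 0.80) and Me3 (r = 0.79), the mitochondrial NADP-dependent malic enzyme. For Cyfip2 they were the mRNA decay factor Patl1 (r = 0.97), the ETS transcription factor Elf4 (r = 0.97) and the haematopoietic GTPase Rac2 (r = 0.96). For Nlrp12 they were Piwil2 (r = 0.87), Dpep2 (r = 0.83) and Cd300lf (r = 0.82), and for Ide Mogat2 (r = 0.84), the actin regulator Was (r = 0.82) and Siae (r = 0.81). For Wdfy1 they were Vmn1r47 (r = 0.88), 9130230L23Rik (r = 0.88) and Gm48493 (r = 0.87), for Entpd4 Sytl3 (r = 0.79), Arfrp1 (r = 0.79) and Slc16a12 (r = 0.76), and for Fgfbp3 Slc25a33 (r = 0.81), Lefty1 (r = 0.77) and Rnaset2a (r = 0.76). The first Nnt row ran most like Pik3c3 (r = 0.80), Ighv1-81 (r = 0.79) and Rbfa (r = 0.77), and the second most like Lbhd1 (r = 0.92), Ggps1 (r = 0.79) and Cep89 (r = 0.75).

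Of the 16 tested genes of the list of mitochondrial NADPH supply and peroxide defence, 1 passed the F test (2.13% of genes), and this was Me3. Me3 makes NADPH in mitochondria from malate, as Nnt does from NADH. It had 3570 to 3666 normalized counts in WT (3613 ± 48.9, SD, n = 3), 2350 to 3035 in CDK19KO (2760 ± 306), 5987 to 10659 in VAV (8198 ± 2015) and 6914 to 9814 in CDK8KO (8724 ± 1276; SD, n = 4 each). The DKO libraries spread from 3717 to 13407 (7140 ± 4477, SD, n = 4). As with Nnt, every VAV and CDK8KO library lay above every WT and CDK19KO library, and DKO was the most variable genotype. The share of all genes with such a split was not counted. Me3 was also named above among the tested genes most like summed Nnt, so their shared pattern is no independent result. The F test gave a limma adjusted p of 0.00671 and held in all 29 alternative settings. Me3 was higher in DKO than in CDK19KO by 1.18 ± 0.28 on the log2 scale (SE, limma adjusted p = 0.0357), where 2% of genes passed. Me3 did not pass between VAV and WT (difference 1.15, limma adjusted p = 0.129). The DKO difference was lost without any one CDK19KO library (limma adjusted p = 0.0740 to 0.0939) and without DKO replicate 3 (0.0976) or 4 (0.0668). It was also lost without both muscle-rich libraries (limma adjusted p = 0.120), with the 2 groups alone (0.0641) and with no filter (0.0504). Between VAV and WT, 7 of the 16 genes were higher and 9 lower (median log2 difference -0.07).

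**Figure D5:**
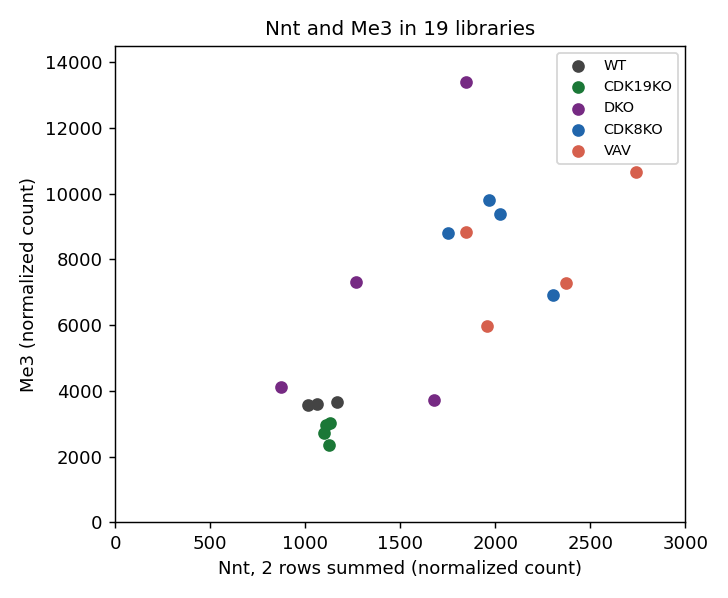
Me3 against summed Nnt in the 19 libraries (points coloured by genotype, both in normalized counts). WT and CDK19KO libraries lie together at the low end of both axes, at most 1166 for Nnt and 3666 for Me3, and Pearson's r of the log2 values was 0.79. Me3 was among the tested genes with the highest r to summed Nnt.

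The other gene lists were read in the same way. Of the 17 tested NLR and inflammasome genes, the list set beside Nlrp12, 1 passed the F test (2.13% of genes). It was Nod1, a cytosolic sensor of bacterial peptidoglycan. Nod1 had 801 to 913 normalized counts in DKO (852 ± 59.1, SD, n = 4) and 450 to 666 in the other 15 libraries, without overlap (limma F test adjusted p = 0.0173). The share of all genes set apart in this way was not counted. The level of Nod1 in DKO was higher than in CDK8KO by 0.65 on the log2 scale (limma adjusted p = 0.00681, 1.7% of genes passed). It was higher than in CDK19KO by 0.61 (0.00921, 2% of genes) and than in VAV by 0.49 (0.0406, 1.52% of genes). The F test call was lost without DKO replicate 2 (limma adjusted p = 0.0771) or 4 (0.0815) and without both muscle-rich libraries (0.108). The call against CDK8KO was lost with the 2 groups alone (limma adjusted p = 0.104). The call against VAV was lost without any one VAV or DKO library, WT replicate 1 or 2, or CDK19KO replicate 2 (limma adjusted p = 0.0510 to 0.138), without both muscle-rich libraries (0.163), with the 2 groups alone (0.0890) and with the replicate block (0.0539). Of the 9 genes of the WD-FYVE and endosomal Toll-like receptor list, the surroundings of Wdfy1, 0 passed the F test. Within that list Tlr4, the lipopolysaccharide receptor, was higher in DKO (2421 ± 466, SD, n = 4) than in CDK19KO (1431 ± 93.1, SD, n = 4). The difference was 0.74 ± 0.16 on the log2 scale (SE, limma adjusted p = 0.0202, 2% of genes passed). The Tlr4 call was lost without any one of the 4 CDK19KO libraries (limma adjusted p = 0.0511 to 0.0616) and without DKO replicate 2 (0.0856) or 3 (0.0556).

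Markers of other cells moved in the comparisons of DKO in which Me3, Nod1 and Tlr4 passed. In DKO the 5 monocyte markers summed to 72705 to 121605, above the 43274 to 52037 of CDK19KO without overlap, as for 15% of genes. Of these 5, 4 were higher and 1 passed. Against CDK8KO 2 of the 5 were higher (median log2 difference -0.06) and against VAV 1 (-0.03), with 0 passing in either. Of 6 T cell markers, 6 were higher in DKO than in CDK19KO (median 0.88), 4 than in CDK8KO (0.54) and 6 than in VAV (0.63). In the same order 1, 3 and 3 of 5 NK cell markers were higher. Of T cell and of NK cell markers, 1 passed in each comparison (2%, 1.7% and 1.52% of genes). Of 7 erythroid markers 0 were higher in DKO than in CDK19KO (median log2 difference -1.86), than in CDK8KO (-1.75) or than in VAV (-0.58), none past the threshold in limma. Of 12 late neutrophil markers, 7 were higher in DKO than in CDK19KO (1 passed), 2 than in CDK8KO (2 passed) and 0 than in VAV (2 passed). The part of these markers in the differences of Me3, Nod1 and Tlr4 was not tested.

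The remaining lists held no gene past the F test in limma. They had 8 tested WAVE complex genes, 6 of the Entpd family, 4 relatives of Ide or other amyloid-degrading peptidases and 5 of the Crumbs complex. Between VAV and WT the WAVE complex genes had 6 higher and 2 lower (median log2 difference 0.22) and the Entpd family 4 higher and 2 lower (0.15). The list of Ide relatives and other peptidases had 1 higher and 3 lower (-0.10) and the Crumbs complex 2 higher and 3 lower (-0.08), none past the threshold.

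Dock2 and Gabra2, which also carry variants in some C57BL/6 stocks, were read in the same way. Dock2, an activator of Rac in leukocytes with a duplication in some C57BL/6N stocks, had 6846 to 10957 normalized counts, so its reads were present in every library, and it did not pass the F test (limma adjusted p = 0.562). Gabra2, a brain GABA receptor subunit with a variant in C57BL/6J, had 0 to 6.24 and was not tested. These ranges describe expression and do not give genotypes at the variants.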

How the data were processed

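RNA of bone marrow flushed from tibiae and femurs was sequenced on a NovaSeq X after Trizol extraction and Kapa mRNA Hyper library preparation, per the labels' protocols. The submitters' processing notes name Salmon 1.4.0, DESeq2 and mm10 without their order or settings; the annotation release is not given in the sources used here. The deposited signal values are normalized counts per gene made by the authors, and 100% of them are whole multiples of 1 step per library (tolerance 0.001), so whole reads were recovered. Positions are from GENCODE annotation of GRCm38.

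Values were tested as log2(value + 1) in limma 3.58.1 (R 4.3.3) with a trend, over genes with a mean of at least 10, by a moderated F test over the 5 genotypes and 6 pairwise contrasts, all 19 libraries in one fit, with Benjamini-Hochberg adjustment and a threshold of 0.05. Exact two-sided permutation tests were run for the member genes. Where limma and edgeR used an F test over the genotypes, DESeq2 used a likelihood ratio test. Alternatives were edgeR 4.0.16 and DESeq2 1.42.0 on the recovered reads (edgeR called 298 genes in the F test, limma 297), other pseudocounts (0.5 and 5), filters (none and a mean of 50) and scaling, fits to the 2 groups alone, a replicate block, and leaving out libraries; the sum of the Nnt rows and the fits without erythroid-rich or muscle-rich libraries were added after the data were seen. The scripts were tested on simulated data. The genes named are the 8 members, up to 3 nearest tested genes on either side of each, the 3 genes most like each by Pearson's r, and those of 8 gene lists that passed a test. Cdk8, Cdk19, Dock2 and Gabra2 are named outside this rule, after their values were seen. The members and lists were chosen with earlier results of these data known. By the median, same-numbered libraries did not deviate together (r = 0.0083), so numbers were not treated as pairs. Part of the list of other substrain loci is not reported here. No sequence is printed.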

Additional observations from a re-analysis of the deposited data

Results flagged for a closer look

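Of 38 groups of 4 libraries tested for a single extreme value (Dixon's test at the 95% level), which chance flags in about 1 of 20, 4 stood out. Ide was 2415 normalized counts in CDK8KO replicate 4, with the other 3 CDK8KO libraries between 1842 and 1891. Fgfbp3 was 2.50 in CDK8KO replicate 2, which is 2 reads, with the others between 14.1 and 15.3. Crb1 was 0.871 in VAV replicate 3 and 1.15 in CDK19KO replicate 4, each 1 read beside 0 in the other 3 libraries of its genotype; a single read beside zeros always meets this criterion, so these 2 say nothing about rarity.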

How the results depend on the processing

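Summed Nnt kept its call among genotypes in all 29 alternative settings. Its log2 difference between VAV and WT lost its call with no filter (1.03, limma adjusted p = 0.0586), with the replicate block (0.99, 0.0759), without the muscle-rich libraries (1.03, 0.0520) and in the 2 groups alone (1.03, 0.178), and ran from 0.92 to 1.11 with 1 library left out. The cause was not tested. With the replicate block, Nnt row 2 and Ide between CDK19KO and WT turned to 0.358 and -0.010, and that comparison called 1 gene instead of 3. The block also ended the call of Nod1 in DKO against VAV (0.49, limma adjusted p = 0.0539) and no other call of a named gene. Of 19 libraries, 7 correlated best with a library of their own number. Among pairs of libraries, 36 share a number and 108 do not, with a median r of 0.0083 and 0.0019. These medians gave no sign of pairing. The highest r of a same-numbered pair was 0.306, between the muscle-rich libraries CDK19KO replicate 4 and DKO replicate 4. The highest r of the other pairs was 0.559, between the erythroid-rich VAV replicate 3 and CDK8KO replicate 1.

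The number of genes called depended on the tool and the libraries. With DESeq2, calls were 1178 in its likelihood ratio test over the 5 genotypes (297 in the limma F test). The pairwise calls of DESeq2 were 2 in CDK8KO against VAV (0 in limma), 12 in CDK19KO against WT (3) and 504 in DKO against VAV (213). They were 321 in VAV against WT (13), 712 in DKO against CDK8KO (238) and 601 in DKO against CDK19KO (279). In the same order, edgeR called 298, 0, 3, 200, 14, 220 and 249. Without the muscle-rich libraries, limma called 96 in the F test, 1 in CDK19KO against WT, 100 in DKO against VAV, 7 in VAV against WT, 94 in DKO against CDK8KO and 96 in DKO against CDK19KO. Without the erythroid-rich libraries it called 1472 in the F test, 396 in DKO against VAV, 1062 in VAV against WT and 883 in DKO against CDK19KO. With 2 groups alone it called 1 in CDK8KO against VAV, 99 in DKO against VAV, 3 in VAV against WT, 31 in DKO against CDK8KO and 968 in DKO against CDK19KO, and with no filter 6 in CDK19KO against WT. With 1 library left out, calls ran from 143 to 746 in the F test, 0 to 1 in CDK8KO against VAV, 1 to 4 in CDK19KO against WT, 101 to 264 in DKO against VAV, 3 to 417 in VAV against WT, 103 to 423 in DKO against CDK8KO and 119 to 442 in DKO against CDK19KO.

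Several differences in member rows that passed no test in limma changed sign. Wdfy1 in CDK8KO against VAV was 0.0036 with TMM scaling, 0.0014 in edgeR and 0.090 without the erythroid-rich libraries. Nlrp12 in DKO against CDK8KO was -0.00042 with TMM scaling, -0.028 in edgeR, -0.022 in DESeq2 and -0.059 without the erythroid-rich libraries, and in DKO against CDK19KO -0.012, -0.020 and -0.0045 with TMM scaling, edgeR and DESeq2. Fgfbp3 in CDK19KO against WT was -0.0072 in edgeR and -0.012 in DESeq2. Ide in DKO against CDK8KO was -0.00049 and -0.0040 without the muscle-rich and the erythroid-rich libraries, and Entpd4 in DKO against CDK19KO -0.040 without the muscle-rich ones. The second Nnt row, at 0 reads in VAV replicate 4, turned in edgeR and DESeq2 to -0.159 and -0.168 in CDK8KO against VAV, -0.689 and -0.689 in DKO against VAV and 1.02 and 1.04 in VAV against WT.

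With 1 library left out, the second Nnt row ran from -0.55 to 3.06 in CDK8KO against VAV, -1.24 to 2.36 in DKO against VAV and -2.18 to 1.42 in VAV against WT, turning without VAV replicate 4. In CDK8KO against VAV the first Nnt row ran from -0.24 to 0.26, Wdfy1 from -0.16 to 0.15 and Fgfbp3 from -0.46 to 0.29. In CDK19KO against WT Ide ran from -0.041 to 0.15 and Fgfbp3 from -0.46 to 0.66, and in VAV against WT Fgfbp3 from -0.40 to 0.72. In DKO against CDK8KO Ide ran from -0.014 to 0.12 and Nlrp12 from -0.10 to 0.16. In DKO against CDK19KO Entpd4 ran from -0.088 to 0.11, Ide from -0.074 to 0.021 and Nlrp12 from -0.12 to 0.062. Depth limits Fgfbp3 and Crb1, read at 2 to 19 and 0 to 1 reads a library.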

Other observations

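Lbhd1, the gene most like the second Nnt row, had 56.2 normalized counts in VAV replicate 4 and 340 to 584 in the other 18 libraries, and Pearson's r of 0.92 came with a Spearman's rho of 0.36. VAV replicate 4 is also the library in which the second Nnt row was at 0. Gm3375, beside Nlrp12, had 44.0, 30.3, 61.1 and 33.0 normalized counts in DKO, 49.997, 0, 32.8 and 0 in CDK8KO, 18.7, 0, 30.5 and 0 in VAV, at most 1.15 in CDK19KO and 0 in all 3 WT libraries. Gm16867, which overlaps Entpd4, had 2854 normalized counts in CDK8KO replicate 1 and at most 2.26 in the other 3 CDK8KO libraries, and 572, 745, 1527 and 2.52 in VAV, while DKO ran from 426 to 584.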
